A study of Mus musculus with 6 samples.

Results

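Expression of 9 B lineage genes was examined in RNA sequencing of innate lymphoid cells (ILCs) from mouse lung. The 9 genes were chosen by name. They comprise 6 B cell identity genes (Cd79a, Cd79b, Ms4a1, Pax5, Ebf1 and Cd22) and 3 plasma cell genes (Jchain, Mzb1 and Tnfrsf17). Each symbol matched 1 identifier among the 52636 genes of the deposited count table, and all 9 passed the filter on low counts. ILCs are lymphocytes without rearranged antigen receptors. A sort for lineage-negative cells is meant to leave B cells out, although the antibodies of its panel are not named in the labels.

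The study compared KLRG1-negative ILCs with KLRG1-positive ILC2s (labelled KLRG1-high in the sort description), with 3 libraries each. KLRG1 is a lectin-like receptor carried by activated group 2 ILCs (ILC2). All mice were wild-type C57BL/6 animals carrying the 4get reporter, green fluorescent protein at the Il4 gene, and all received the cytokine interleukin-33, at 500 ng intraperitoneally for 4 days, and were killed on day 5. Both populations were gated as lineage-negative and CD90-positive, with a stated purity above 90%. Whether the libraries of a group came from separate mice or from pools is not stated, so p-values measure the spread between these libraries, which may be technical.

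Libraries held 17323004 to 23946073 counts, so that 1 count corresponded to 0.0394 to 0.0563 CPM (counts scaled to library size, with the TMM method's factors). ILC2 markers summed to 8843 to 10069 CPM in KLRG1-positive and 1248 to 4371 CPM in KLRG1-negative libraries, and all 12 had positive log2 fold changes. The list includes Klrg1, whose direction was set by the sort, and Icos, at a log2 fold change of only 0.04. Of the 12, edgeR called 0 higher and DESeq2 5, against 0.125% and 2.28% of all genes. Although sorted as lineage-negative, the KLRG1-negative libraries also held the T cell receptor gene Cd3e at 149 to 798 CPM, against 8.81 to 39.0 CPM in the KLRG1-positive libraries (edgeR adjusted p = 0.0813, and 0.0468 with the replicate block described next). The deviations of libraries with the same replicate number correlated with each other, and the numbers were treated as pairing the libraries of the 2 populations in an alternative fit. A lower level in these bulk libraries can mean fewer cells of a type or less RNA per cell, and the 2 cannot be told apart.

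As background, a B cell is committed to its lineage by the transcription factors Ebf1 and Pax5, which act on genes of the B cell receptor. That receptor is a membrane immunoglobulin bound to the signalling chains CD79A and CD79B. MS4A1 (CD20) and the inhibitory lectin CD22 sit beside it on the surface. A B cell that becomes a plasma cell turns down Pax5 and makes secreted antibody. JCHAIN then links IgM and IgA subunits into polymers, MZB1 is an endoplasmic reticulum protein that aids antibody assembly, and TNFRSF17 (BCMA) receives the survival factor APRIL.

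The promoters of Cd79a, whose level followed the B cell identity pattern described below, and of Jchain, whose level followed the plasma cell pattern, are shown as the 250 bases upstream of the RefSeq start (build GRCm38.p6). Capitals mark matches to letters known from EBF sites (CCCNNGGG or CCCNNGAG) and to the E-box CAGGTG, searched on both strands; CAGGTG shares no bases with the EBF match here. The Cd79a window is chr7:24897247-24897496, plus strand, and overlaps the first bases of the deposited gene model, which starts at 24897381. The Jchain window is chr5:88527898-88528147, minus strand.
Cd79a: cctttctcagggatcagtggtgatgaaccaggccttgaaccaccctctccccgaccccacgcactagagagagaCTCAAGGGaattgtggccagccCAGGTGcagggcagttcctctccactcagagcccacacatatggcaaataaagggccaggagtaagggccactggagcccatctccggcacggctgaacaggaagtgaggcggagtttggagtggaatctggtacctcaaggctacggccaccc
Jchain: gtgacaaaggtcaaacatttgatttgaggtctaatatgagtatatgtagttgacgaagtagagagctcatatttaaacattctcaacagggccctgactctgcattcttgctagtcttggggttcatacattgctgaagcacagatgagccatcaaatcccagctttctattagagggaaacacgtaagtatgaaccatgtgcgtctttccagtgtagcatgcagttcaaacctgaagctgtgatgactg
The Cd79a window held 1 EBF match, on bases -176 to -169 from the start, and 1 E-box, on bases -154 to -149. No match to these letters or to the octamer ATGCAAAT was found in the Jchain window. Among the 7 RefSeq promoters of the 6 members with an entry (Cd79a, Pax5, Ebf1, Cd22, Jchain and Tnfrsf17), EBF letters were present in 2, those of Cd79a and Cd22, as was the E-box. Of all 32851 promoter windows of this length, 29.3% held the EBF letters, 17.2% the E-box and 1.6% the octamer.

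All 6 B cell identity genes were lower in every KLRG1-positive library than in every KLRG1-negative library, with group means 4.02- to 19.5-fold apart. Among the 15197 genes tested, 15.2% had groups that did not overlap in this direction and 9.46% in the opposite one. The 3 plasma cell genes stood 2.85- to 3.35-fold apart, and their groups overlapped. None of the 9 genes passed edgeR's quasi-likelihood test adjusted over all genes (0 of 9 lower and 0 higher, against 1.21% of all genes called lower and 0.125% higher). Before adjustment, at p under 0.05, 7 of the 9 were lower and 0 higher, against 11.5% and 4.19% of all genes. DESeq2 called 5 of the 9 lower (Cd79a, Pax5, Ebf1, Cd22 and Jchain) and 0 higher, against 9.06% and 2.28% of all genes, and gave no adjusted p for Ms4a1. With the replicate number as a block, edgeR called 3 lower, Cd79a, Ms4a1 and Ebf1, against 0.349% of all genes. DESeq2 with the block called 8 lower and 0 higher, against 11.2% and 4.01%, and Tnfrsf17 did not pass. With both libraries of 1 number left out, the blocked edgeR fit called 0 of the genes it tested and so allows no reading of the members' calls. The log2 fold change of Cd79a was -3.28, -3.28 and -3.05 without numbers 1, 2 and 3, against -3.27 with all. The sizes depended on KLRG1-negative library 3. Without it the log2 fold changes of Cd79a, Ms4a1, Ebf1, Cd22 and Pax5 were -2.01, -1.98, -2.77, -2.11 and -1.88, and DESeq2 called 2 members, Ebf1 and Cd22. Calls by edgeR over all genes, those of list genes named below included, also rested on single libraries: 184 genes were lower with all libraries, and 0 without KLRG1-negative library 3 or KLRG1-positive library 2, 4 without KLRG1-negative library 2 and 1 without KLRG1-positive library 3.

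Cd79a, the signalling chain of the B cell receptor on chromosome 7 (24897381 to 24902197), stood at 91.4, 108 and 587 CPM in KLRG1-negative libraries 1, 2 and 3. In KLRG1-positive libraries 1, 2 and 3 it stood at 9.74, 13.2 and 50.7 CPM. Library 3 was the highest of its population in both sorts, 6.43 times library 1 among the KLRG1-negative and 5.21 times among the KLRG1-positive libraries. On the log2 scale KLRG1-positive minus KLRG1-negative gave -3.42 ± 1.03 (SE, 3 libraries each; edgeR adjusted p = 0.175). With the replicate block the standard error was 0.18 and the gene passed (edgeR adjusted p = 0.0409). The SE here and below was back-computed, as the absolute log2 fold change divided by the square root of the test's F value.

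Ms4a1, which encodes CD20, ranged more widely. KLRG1-negative libraries had 159, 182 and 1575 CPM, and KLRG1-positive libraries 12.2, 16.0 and 100.3 CPM. Library 3 was again the highest in both sorts, and the groups did not overlap. The log2 fold change was -3.90 ± 1.33 (SE; edgeR adjusted p = 0.225), and the block brought the edgeR adjusted p to 0.0409.

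Cd22, the inhibitory lectin on chromosome 7, stood at 58.7, 47.8 and 339 CPM against 7.15, 8.01 and 21.4 CPM. Its log2 fold change was -3.61 ± 0.96 (SE; edgeR adjusted p = 0.13). Exons of Cd22 share 479 bases with the antisense gene Gm29439, and reads were counted without strand, so its value is uncertain to that extent.

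The transcription factor genes were the scarcest of the identity group per kilobase of exon. Ebf1 (chromosome 11, 44617317 to 45008091) measured 21.6, 29.9 and 167 CPM among KLRG1-negative libraries, compared with 1.41, 2.62 and 7.19 CPM among KLRG1-positive libraries. It had the largest fold of the 9 genes, with a log2 fold change of -4.28 ± 1.08 (SE; edgeR adjusted p = 0.116), and the block brought the edgeR adjusted p to 0.0494. Ebf1 is also expressed by fibroblasts. In the same libraries 10 fibroblast markers summed to 4073, 7179 and 11479 CPM in KLRG1-negative libraries 1, 2 and 3 and to 18.6 to 48.9 CPM in KLRG1-positive libraries. Of these 10, 8 were lower by edgeR and 0 higher, 2 were lower with the block (Lum and Serpinf1), and none was without a count in all libraries; their part in the Ebf1 value was not tested. Per unit of Cd79a, Ebf1 stood at 0.236 to 0.284 in KLRG1-negative and 0.142 to 0.198 in KLRG1-positive libraries, ranges that did not overlap.

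Pax5 (chromosome 4, 44524757 to 44710487) stood at 3.17, 5.99 and 28.3 CPM against 0.732, 0.587 and 2.35 CPM. These levels rested on 57, 152 and 589 counts in KLRG1-negative and on 13, 11 and 53 counts in KLRG1-positive libraries. The log2 fold change was -3.34 ± 1.07 (SE; edgeR adjusted p = 0.199). Its exons share 125 and 636 bases with the opposite-strand genes Gm12462 and 5730488B01Rik, which makes its counts uncertain too.

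**Figure D1:**
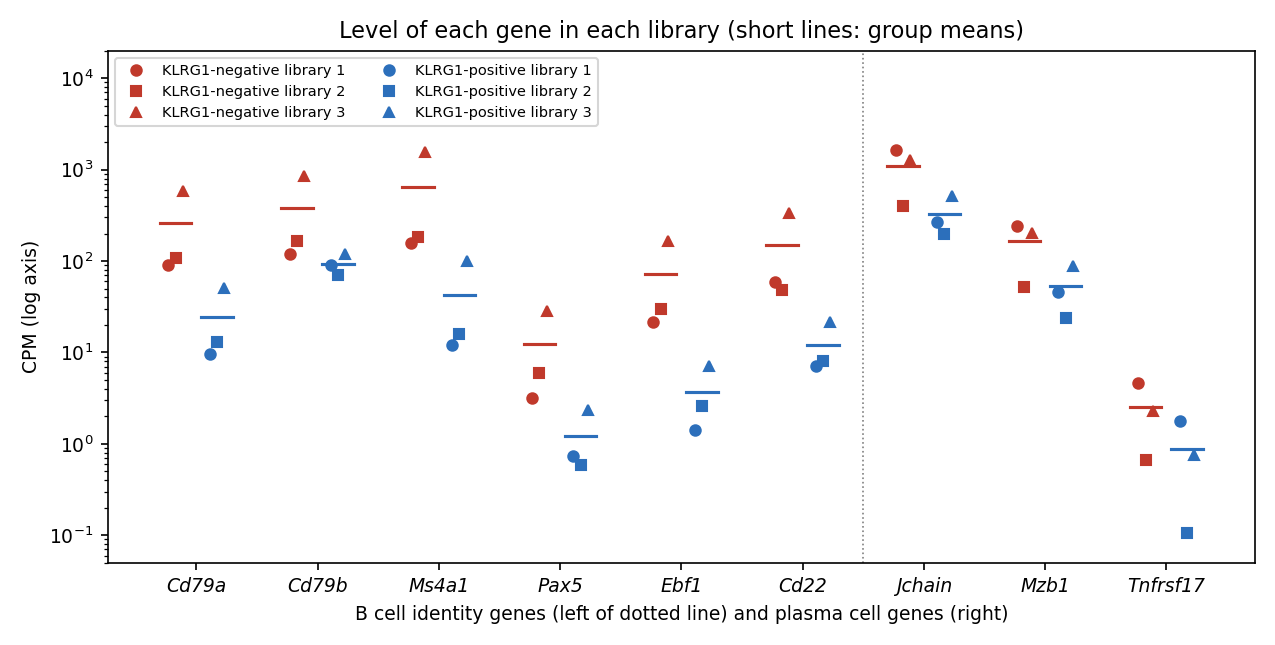
Level of the 9 genes in the 6 libraries, in CPM on a log axis; red marks KLRG1-negative and blue KLRG1-positive libraries, the marker shape gives the replicate number, and short lines are group means (n = 3). Library 3 (triangles) is the highest of both populations for all 6 identity genes, while library 2 (squares) is the lowest of both for all 3 plasma cell genes.

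Cd79b departed from the other identity genes. It encodes the partner chain of CD79A (chromosome 11, 106311341 to 106314762) and stood at 121, 165 and 845 CPM in KLRG1-negative libraries. In KLRG1-positive libraries it stood at 90.4, 71.2 and 119 CPM, a far narrower range. The lowest KLRG1-negative library was only 1.01 times the highest KLRG1-positive library, and the log2 fold change was -2.01 ± 0.78 (SE; edgeR adjusted p = 0.285, and 0.256 with the block). Without KLRG1-negative library 3 the log2 fold change was -0.60.

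The ratio of Cd79b to Cd79a within a library shows the departure directly. It was 1.32, 1.52 and 1.44 in the KLRG1-negative libraries, nearly constant although Cd79a itself varied 6.43-fold between libraries 1 and 3. In the KLRG1-positive libraries it was 9.28, 5.40 and 2.35, so that every KLRG1-positive library had more Cd79b per Cd79a than any KLRG1-negative library. Among the KLRG1-positive libraries the ratio was highest where Cd79a was lowest. Ratios of Ms4a1 (1.21 to 2.68), Cd22 (0.422 to 0.734) and Pax5 (0.0347 to 0.0751) to Cd79a overlapped between the populations.

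**Figure D2:**
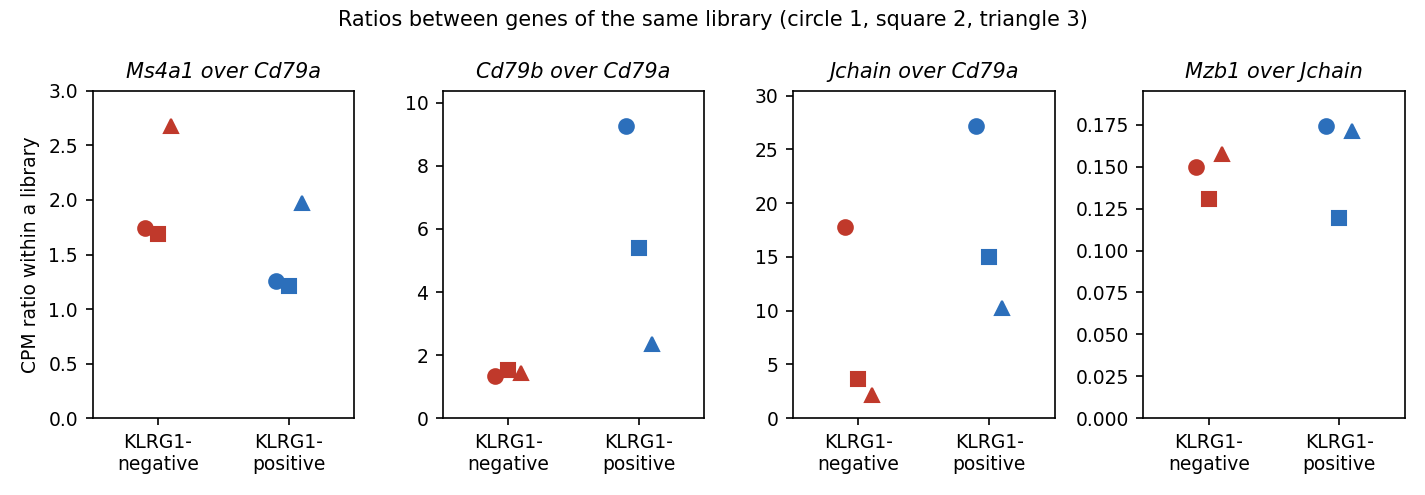
Ratio of CPM values between genes of the same library, linear axes from 0; red points are KLRG1-negative and blue KLRG1-positive libraries, with the shape giving the replicate number. The Ms4a1 to Cd79a ratio stays between 1.21 and 2.68 in all 6 libraries, whereas Cd79b reaches 9.28 times Cd79a in KLRG1-positive library 1.

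Jchain was the most abundant of the 9 genes. On chromosome 5 (88519809 to 88527891), it reached 1625, 398 and 1273 CPM among KLRG1-negative libraries, compared with 265, 198 and 520 CPM among KLRG1-positive libraries. KLRG1-positive library 3 lay above KLRG1-negative library 2, so the groups overlapped. The log2 fold change was -1.75 ± 0.60 (SE, 3 libraries each; edgeR adjusted p = 0.23, and 0.147 with the block; DESeq2 adjusted p = 0.0372).

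Mzb1 measured 244, 52.0 and 201 CPM against 46.3, 23.6 and 89.0 CPM, again with overlapping groups. It kept a ratio to Jchain of 0.119 to 0.175 in all 6 libraries, and its log2 fold change was -1.64 ± 0.70 (SE; edgeR adjusted p = 0.337).

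Tnfrsf17 was scarce, with 83, 17 and 48 counts in KLRG1-negative and 32, 2 and 17 counts in KLRG1-positive libraries, or 0.107 to 4.62 CPM. Its log2 fold change was -1.51 ± 1.16 (SE; edgeR adjusted p = 0.64). The difference did not exceed the spread between libraries.

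Among the KLRG1-negative libraries, the 2 groups of genes ordered the libraries differently. All 6 identity genes were highest in library 3 of both populations, 5.78 to 9.88 times the level of library 1 among the KLRG1-negative libraries. All 3 plasma cell genes were highest in library 1 among the KLRG1-negative libraries and lowest in library 2 of both populations. Among the KLRG1-positive libraries, however, Jchain and Mzb1 were highest in library 3, as the identity genes were, and only Tnfrsf17 was highest in library 1. Jchain per Cd79a was 17.8, 3.68 and 2.17 in KLRG1-negative libraries and 27.2, 15.0 and 10.2 in KLRG1-positive libraries. Within each replicate number this ratio was higher in the KLRG1-positive library, while across numbers the populations overlapped.

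Compared within each replicate number, all 9 genes were lower in the KLRG1-positive library in 3 of 3 numbers, against 25.1% of all tested genes. Cd79a was 9.38-, 8.20- and 11.6-fold lower in numbers 1, 2 and 3, with 95% counting intervals of 8.02 to 11, 7.20 to 9.38 and 10.9 to 12.3. Ms4a1 was 13-, 11.4- and 15.7-fold lower. Ebf1 was 15.3-, 11.4- and 23.2-fold lower, Cd22 8.21-, 5.97- and 15.9-fold and Pax5 4.33-, 10.2- and 12-fold, so these 5 genes had their largest fold in number 3. Cd79b was 1.34-, 2.31- and 7.08-fold lower. Jchain was 6.13-, 2.01- and 2.45-fold lower and Mzb1 5.27-, 2.20- and 2.26-fold, so both had their largest fold in number 1. Counting intervals cover counting error only, because amplified reads are not independent molecules.

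**Figure D3:**
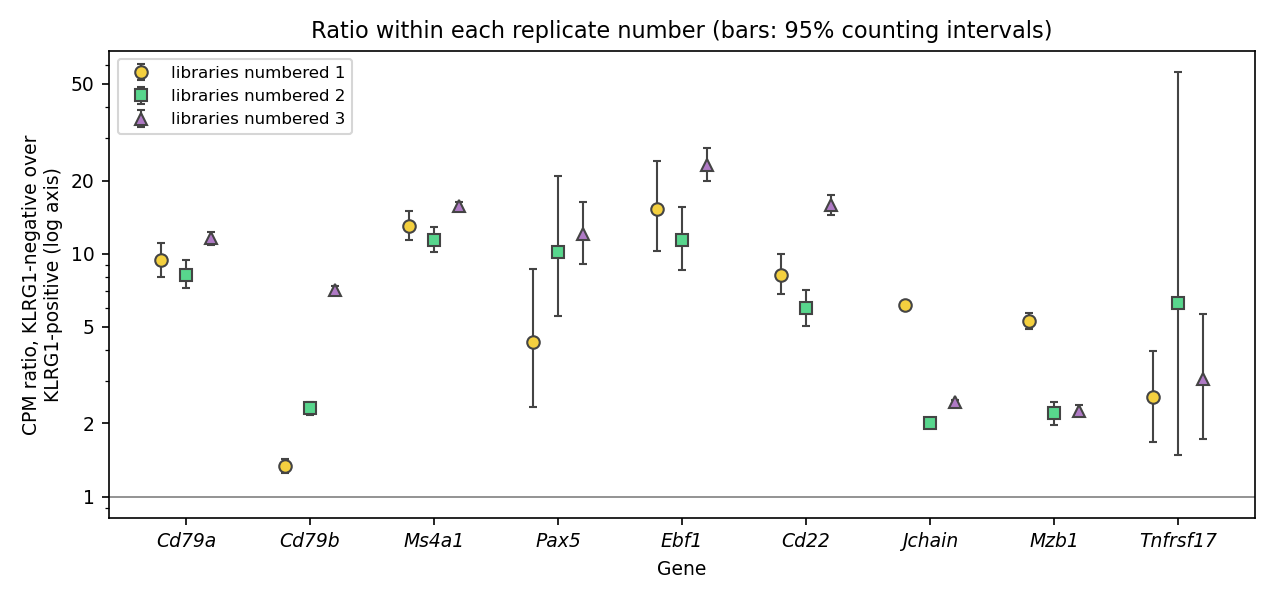
Ratio of the KLRG1-negative to the KLRG1-positive level of each gene within each replicate number, on a log axis, with 95% counting intervals (exact conditional binomial). All points lie above 1; Cd79a lies between 8.20 and 11.6, and Cd79b spreads from 1.34 to 7.08.

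Immunoglobulin genes ordered the libraries within each population as Jchain did. Ighm, the heavy chain gene of IgM, stood at 18318, 4701 and 17959 CPM against 3171, 1955 and 6841 CPM, or 5.78-, 2.4- and 2.63-fold lower within numbers 1, 2 and 3. Igkc, the kappa light chain gene, stood at 8284, 1972 and 6338 CPM against 881, 376 and 1296 CPM, and its groups, unlike those of Jchain and Ighm, did not overlap.

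Levels of different genes were compared per kilobase of exon. Among KLRG1-negative libraries the mean was 437 CPM per kb for Jchain, 263 for Cd79b, 183 for Mzb1, 180 for Cd79a, 103 for Ms4a1, 29.5 for Cd22, 7.46 for Ebf1, 3.11 for Tnfrsf17 and 1.41 for Pax5. The ranges over libraries overlapped for every pair of neighbours in that order, as Jchain ranged from 158 to 646 and Cd79b from 84.5 to 591 CPM per kb. In KLRG1-positive libraries the first 6 genes kept that order, from 130 CPM per kb for Jchain through 65.5 for Cd79b, 58.5 for Mzb1 and 16.9 for Cd79a to 2.42 for Cd22. There Cd79b (49.8 to 83.4 CPM per kb) lay above the highest Cd79a value (34.8), whereas in KLRG1-negative libraries the ranges of Cd79b and Cd79a (62.7 to 403) overlapped.

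The genes with the profile most like Cd79a were found by the root mean square distance between centred log2 CPM values over the 6 libraries. Outside the 9 genes, the nearest of 12623 protein-coding genes included the B cell scaffold gene Bank1 (distance 0.19), B3gnt8 (0.19), Fcrla (0.20) and Ly6d (0.23). With the 9 genes included, Cd22, Pax5, Ebf1 and Ms4a1 ranked 6, 8, 10 and 11 in nearness to Cd79a. Cd79b ranked 186 (distance 1.06), and Jchain 425 (1.29). For Jchain, the nearest gene of all was Mzb1 (distance 0.20). Outside the 9 genes it was followed by Derl3 (0.29), a gene of endoplasmic reticulum protein degradation, and by Eaf2 (0.31), Camkk1 (0.31), Apobec2 (0.37) and Ero1lb (0.40). Tnfrsf17 ranked 590 (distance 0.87) and Cd79b 1603 (0.98) in nearness to Jchain. Ranks for the 2 targets are not comparable, since by distance Cd79b lay no closer to Cd79a than to Jchain. The likeness is a description of 6 libraries, in which all these genes also share the difference between populations.

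Other B cell genes were taken from lists without the 9. Of 22 surface and co-receptor genes, 21 had negative log2 fold changes and the median was -3.20, against -0.05 over all tested genes, while 1 passed as lower (16 at an unadjusted p under 0.05). That gene, Cd55, a complement regulator also made by other cells, stood at 164, 71.0 and 140 CPM against 7.77, 5.82 and 11.8 CPM (log2 fold change -3.88 ± 0.45 SE, edgeR adjusted p = 0.0295). With the block Siglecg passed as well (edgeR adjusted p = 0.0422). The list's most abundant genes, Cd37 and Ltb, which T cells and ILCs also express, were not apart. Ltb stood at 795 ± 173 against 970 ± 275 CPM and Cd37 at 492 ± 152 against 487 ± 111 CPM (KLRG1-negative first, SD, n = 3).

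Of 15 B cell receptor signalling genes, 10 had negative log2 fold changes (median -0.89) and 1 passed as lower (9 lower before adjustment at 0.05; 7 called by DESeq2). It was Blk, a Src family kinase gene, at 73.4, 56.0 and 124 CPM against 2.31, 3.36 and 6.66 CPM (log2 fold change -4.36 ± 0.56 SE, edgeR adjusted p = 0.0365). The most abundant of the list, Ptpn6 and Inpp5d, encode phosphatases found throughout the leukocytes. Ptpn6 stood at 510 ± 190 against 275 ± 76.2 CPM and Inpp5d at 317 ± 84.1 against 415 ± 83.1 CPM (KLRG1-negative first, SD, n = 3). Neither passed.

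Of 16 B lineage transcription factors, 14 had negative log2 fold changes (median -1.53), and by edgeR 0 passed (9 lower before adjustment at 0.05; 8 called by DESeq2). With the block 1 passed, Spib, at 42.4, 53.7 and 372 CPM against 4.17, 3.04 and 17 CPM (edgeR adjusted p = 0.0494). Ets1 and Ikzf1 are also expressed by ILCs and T cells. Ets1 stood at 1779 ± 216 against 1552 ± 550 CPM and Ikzf1 at 216 ± 30.9 against 239 ± 19.8 CPM (KLRG1-negative first, SD, n = 3).

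Of 14 plasma cell regulators and surface genes, 10 had negative log2 fold changes (median -0.94), 7 were lower and 2 higher before adjustment at 0.05, and DESeq2 called 7 lower. The 1 that passed was Cd28, which is also a T cell gene. It stood at 196 ± 102 against 16.5 ± 5.87 CPM (KLRG1-negative first, edgeR adjusted p = 0.043). When the block was added, Cd28 missed the threshold (edgeR adjusted p = 0.0526). Xbp1, the secretory transcription factor gene, stood at 378 ± 129 against 277 ± 96.4 CPM (KLRG1-negative first). In that order the integrin gene Itga4 stood at 221 ± 72.7 against 417 ± 142 CPM. Of 18 genes of the secretory machinery, 9 were negative and 9 positive (median -0.04), and 0 passed by edgeR (before adjustment 2 were lower and 1 higher at 0.05; DESeq2 called 1 lower and 1 higher). Its most abundant member, the chaperone gene Hspa5, stood at 1398 ± 518 against 1406 ± 337 CPM (KLRG1-negative first).

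**Figure D4:**
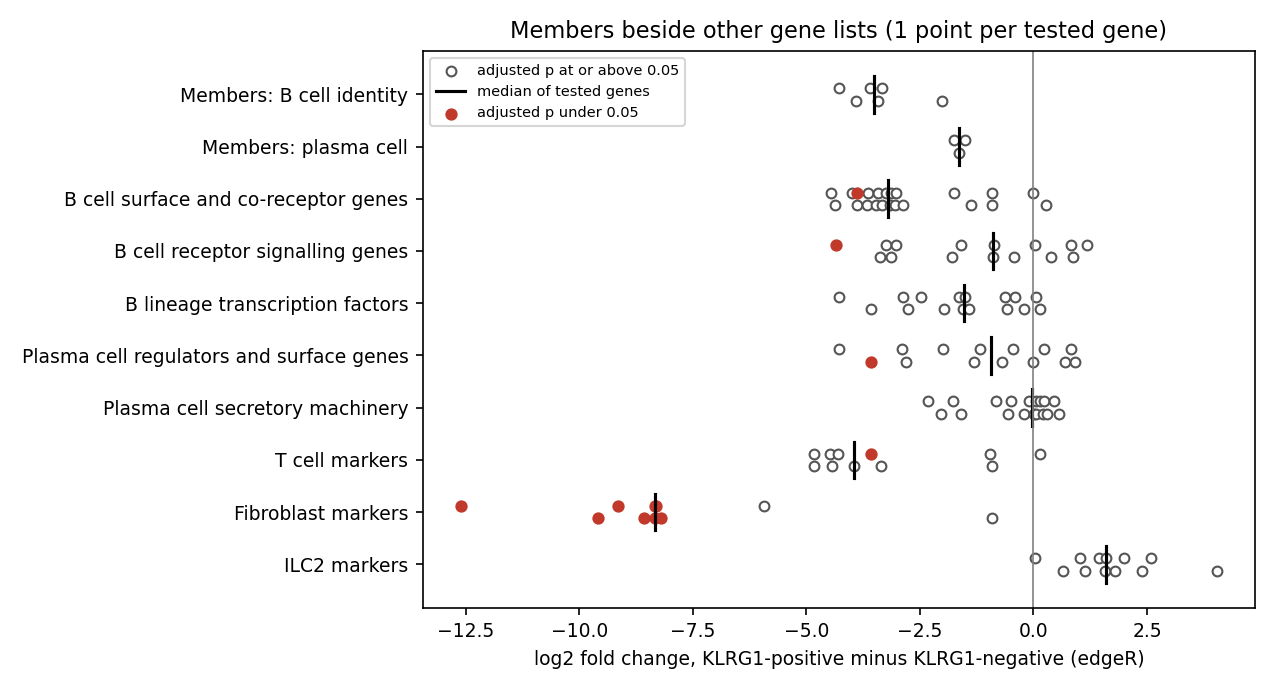
Fitted log2 fold change (KLRG1-positive minus KLRG1-negative, edgeR) of every tested gene of the 9 members and of 8 other lists; filled red points passed at an adjusted p under 0.05 and black lines are medians. The identity members and the B cell surface list lie near -3.51 and -3.20, the plasma cell members near -1.64, and the secretory machinery near 0.

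Markers of other cells were set beside these values. Among 12 T cell markers, 11 were tested and 10 of those were on the negative side, with a median log2 fold change of -3.94. Of the 11, edgeR called 1 lower (Cd28), 4 with the block, and DESeq2 8. The list's summed level was 5499, 2947 and 1544 CPM in KLRG1-negative libraries 1, 2 and 3 and 597 to 855 CPM in KLRG1-positive libraries. Among the KLRG1-negative libraries, T cell markers were therefore lowest in library 3, where the identity genes were highest. The sum in KLRG1-positive libraries came mainly from Cd3g, Lat and Bcl11b, which averaged 237, 196 and 136 CPM there. The next marker, Trac, averaged 33.4 CPM, and Cd3e 20.1 CPM. Cd4 had no count in 4 of the libraries. The other co-receptor gene of the list, Cd8a, stood at 674, 314 and 192 CPM in KLRG1-negative libraries 1, 2 and 3. In KLRG1-positive libraries 1, 2 and 3 Cd8a stood at 42.1, 3.47 and 7.50 CPM. Of 9 tested markers of plasmacytoid dendritic cells, which also express Mzb1, 7 had negative log2 fold changes, with sums of 362 to 435 against 218 to 281 CPM. Their defining gene Siglech, which did not pass the low-count filter, stood at 5.28, 3.51 and 0 CPM in KLRG1-negative libraries 1, 2 and 3. In KLRG1-positive libraries it stood at 0, 0.107 and 0 CPM, with 184 counts against 2. The list's 2 most abundant genes were Irf7, at 141 ± 20.9 against 73.6 ± 13.9 CPM, and Bst2, at 60.5 ± 8.55 against 60.5 ± 10.8 CPM (KLRG1-negative first, SD, n = 3). Ccr9 leaned the other way, at 31.2 ± 28.1 against 48.3 ± 51.5 CPM. Macrophage, monocyte and neutrophil markers summed to 127 to 406 against 57.0 to 320 CPM, and epithelial and endothelial markers to 192 to 822 against 106 to 605 CPM. The part of these cells in the levels of the 9 genes was not tested.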

How the data were processed

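RNA was sequenced from 6 libraries, 3 of KLRG1-negative and 3 of KLRG1-positive cells. The authors deposited raw counts of reads per gene, without normalization; per the file headers they were made with featureCounts 1.5.2 on Ensembl release 90 gene models of GRCm38, without strand and as single reads. Reads mapping to several places or genes were not counted. Amplified full-length cDNA was fragmented for sequencing, per the labels' protocols. Tools named in the submitters' processing notes are bcl2fastq, STAR 2.4.1d and Subread 1.5.2. Multi-mapping alignments were 26.3 to 32.3% of each library, so genes with close copies, such as immunoglobulin genes, are uncertain. Symbols came from GENCODE release M21 (52489 of 52636 identifiers matched), and promoter sequences from RefSeq.

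Counts were tested with edgeR 4.0.16 in R 4.3.3 (quasi-likelihood F test, robust dispersion, TMM factors, filterByExpr), with Benjamini-Hochberg adjustment over 15197 genes and a threshold of 0.05; tests were two-sided. The fit was run on simulated data in which libraries were not paired, so that run cannot vouch for the block. Recovery of calls was required there only without the block and at a smaller spread than these data had. Alternatives were DESeq2 1.42.0, other scalings, no filter, a replicate block and left-out libraries; DESeq2 with libraries left out and the block with a number left out were added after seeing the data. Same-numbered libraries deviated together (correlations across genes, which are not independent, of 0.38, 0.34 and 0.19 for numbers 1, 2 and 3), so the numbers were read as pairing the libraries, a reading from the data and not from the labels.

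Named genes were the 9 members; per list, genes past the threshold (up to 3), the 2 with the highest mean CPM and those without a count; the 5 most like Cd79a and Jchain; and Ighm, Igkc and Cd3e. One gene that the rule names is not reported here. Genes outside this rule were chosen after their values were seen. The members and lists were chosen with earlier results of these data known.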

Additional observations from a re-analysis of the deposited data

How the results depend on the processing

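Across 15 alternative fits, which reuse the same libraries, all 134 log2 fold changes of the 9 members stayed negative. Fits added after seeing the data are not in this count. No member passed in edgeR with DESeq2 size factors, with library size only, without a filter, or with a library or both libraries of a number left out. With the replicate block 3 members were lower; DESeq2 gave 5, and 8 with the replicate block. DESeq2 called 6, 8 and 2 members lower when KLRG1-negative library 1, 2 or 3 was left out, and 4, 4 and 7 when KLRG1-positive library 1, 2 or 3 was; Ebf1 and Cd22 were the 2 called without KLRG1-negative library 3. With the block and both libraries of a number left out, edgeR called 0 members and 0 genes in any of 3 fits. In those fits the log2 fold change of Cd79a was -3.28, -3.28 and -3.05, with edgeR adjusted p of 0.0788, 0.284 and 0.184, and fewer libraries were fitted. In edgeR the block changed the call of Cd79a, Ms4a1 and Ebf1; in DESeq2 it also brought Cd79b and Mzb1 past the threshold.

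Over all genes edgeR called 184 lower and 19 higher. The replicate block gave 53 and 0, no filter 282 and 37, DESeq2 1377 and 346, and DESeq2 with the block 1697 and 609. In edgeR, single libraries left out gave 0 to 159 lower and 0 to 5 higher; in DESeq2 leaving out KLRG1-negative library 1, 2 or 3 gave 1283, 1395 and 1185 lower and 523, 551 and 421 higher, and KLRG1-positive library 1, 2 or 3 1555, 1312 and 1210 lower and 199, 318 and 171 higher. Without both libraries numbered 1, 2 or 3, edgeR called 168, 0 and 0 lower and 3, 0 and 0 higher. The cause of these differences was not tested. Depth limits Tnfrsf17 and Pax5, which had as few as 2 and 11 counts in a library.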

Other observations

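Of 12 genes of B cell precursors, 5 passed the filter on low counts, and 0 passed by edgeR (2 lower before adjustment at 0.05; DESeq2 called 2 lower, Dntt and Vpreb3). Dntt, the terminal transferase gene, stood at 1.22, 11.6 and 3.56 CPM in KLRG1-negative libraries, or 391 counts in sum, against 1 count in all KLRG1-positive libraries together (DESeq2 adjusted p = 2.62e-05; edgeR adjusted p = 0.0702). Rag1, Rag2, Vpreb2 and Igll1 had 0 counts in all 6 libraries, which allows up to 0.118 to 0.169 CPM per library by the limit of 3 counts. Vpreb3, a surrogate light chain gene also present in some mature B cells, stood at 3.95, 1.5 and 53.0 CPM in KLRG1-negative and at 0.507, 0.320 and 1.42 CPM in KLRG1-positive libraries (edgeR adjusted p = 0.211; DESeq2 adjusted p = 0.0031). Like the identity genes, it was highest in library 3 of both populations. Cd93 averaged 17.2 ± 11.9 CPM in the KLRG1-positive population against 10.7 ± 9.0 CPM (SD, n = 3).

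Of 12 germinal centre genes, 7 were tested, 6 with negative log2 fold changes (median -0.36), and 0 passed by edgeR (1 lower at an unadjusted p under 0.05; DESeq2 called 0). S1pr2 stood at 43.1 ± 17.3 against 44.3 ± 10.6 CPM, and Fas at 18.2 ± 6.33 against 41.2 ± 12.3 CPM (KLRG1-positive first; SD, n = 3). Of 12 marginal zone and B1 cell genes, 9 had negative log2 fold changes (median -1.63), and 0 passed by edgeR (before adjustment 6 were lower and 2 higher at 0.05; DESeq2 called 6 lower and 1 higher). Anxa2 stood at 1248 ± 169 against 711 ± 154 CPM and Zbtb32 at 45.0 ± 25.5 against 127 ± 119 CPM (KLRG1-positive first). Of 8 tested genes of the BAFF and APRIL axis, 4 had negative and 4 positive log2 fold changes (median -0.08), and 0 passed by edgeR (before adjustment 2 were lower and 1 higher at 0.05; DESeq2 called 1 lower). Nfkb2 stood at 287 ± 47.6 against 190 ± 49.4 CPM and Traf2 at 186 ± 22.5 against 126 ± 25.3 CPM (KLRG1-positive first).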
